A study of Mus musculus with 4 samples.

Results

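The matrix metalloproteinases Mmp8, Mmp9, Mmp12, Mmp13, Mmp14, Mmp19 and Mmp27, the sheddase Adam8 and the inhibitors Timp1 and Timp2 were followed in bone marrow (BM) macrophages that had engulfed apoptotic prostate cancer cells. They were taken by symbol from the count matrices, where they are 10 of 31053 genes. Their measured values played no part in the rule, but the members were chosen with earlier results of these data known. BM macrophages of wild-type C57BL/6J mice, 4 weeks of age by the figure legend and males of 4 to 6 weeks by the methods, had grown for 4 days with macrophage colony-stimulating factor. Efferocytic BM macrophages were then kept for 16 to 18 h in medium of little serum with an equal number of RM1 cells, a mouse prostate cancer line, which had been killed by ultraviolet light and stained with the dye CFSE, and were sorted as F4/80+CFSE+. Non-efferocytic BM macrophages were sorted as F4/80+ only, and are described both as macrophages alone and as macrophages that had not engulfed, so that the presence of RM1 cells in their culture is not settled by the sources used here. Each of 2 experiments gave 1 droplet library (10x Genomics, 3' end) of each group, 4 libraries in all.

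Matrix metalloproteinases are zinc proteinases that are made as inactive precursors and cut collagens, elastin, proteoglycans and many cell surface and secreted proteins. TIMPs bind their active sites and hold them inactive, and ADAM8 is a membrane proteinase of leukocytes that releases the outer parts of surface receptors and adhesion molecules. In macrophages the elastase MMP12 is the best known member, while MMP8 and MMP9 are stored in neutrophil granules, and stromal cells are a usual source of MMP14 and TIMP1.

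A barcode counted as a cell when it held 200 or more genes and 1000 or more UMIs (unique molecular identifiers, which count RNA molecules), of which at most 10% were mitochondrial. This left 6695 to 13411 cells a library, with 101216659 to 155224183 UMIs in all. Median depth per cell was lower in non-efferocytic than in efferocytic libraries, 11146 against 17171 UMIs in Experiment 1 and 9600 against 17476 in Experiment 2. Clusters named macrophage-like by their markers held 80.4% to 95.0% of the cells. Clusters left unnamed for their few UMIs held 18.4% of the cells of the non-efferocytic library of Experiment 2 (2472 cells, median 1252 UMIs). In the other libraries they held 4.30% to 5.60%. These cells stayed in the library sums, with 10.4% of the Mmp14 and 6.72% of the Timp1 UMIs of the non-efferocytic library of Experiment 2. Neutrophil-like clusters held 75 and 121 cells of the non-efferocytic libraries and 24 and 23 of the efferocytic ones, and fibroblast-like clusters 33, 37, 21 and 21 in that order. The 14 neutrophil markers sum to 3136 and 3441 counts per 1e6 UMIs (CPM) in the non-efferocytic libraries and 989 and 734 in the efferocytic ones, and the 13 fibroblast and carcinoma markers to 153 and 136 against 49.1 and 61.6. No neutrophil marker was at 0 in any library, while 2 and 1 of the fibroblast and carcinoma markers were at 0 in the non-efferocytic and efferocytic library of Experiment 1, and 14 of 14 and 6 of 13 were called lower in efferocytic BM macrophages. All 6 monocyte markers were also called lower, with sums of 224 and 247 CPM against 79.1 and 61.9, as were 7 of 12 macrophage markers, with 41950 and 36016 CPM against 33408 and 25422, while 1 was called higher. The part of these markers in the members' values was not tested. Whether the fibroblast-like cells are marrow stromal cells or RM1 cells cannot be told apart in these files, and they were present in the libraries of both groups. The libraries of Experiment 2 share 118 barcodes, 1.40% of the smaller library against 0.197% by chance, and the other library pairs 14 to 23.

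Of the 10 members, 3 were called higher in efferocytic BM macrophages (Mmp12, Mmp27, Adam8) and 4 lower (Mmp9, Mmp13, Mmp14, Timp1), and Mmp8, Mmp19 and Timp2 did not pass the test. A call is an adjusted p under 0.05 in edgeR on the UMIs summed over each library, with the experiment as a block. By the same rule 19.9% of 13869 genes were called higher and 19.0% lower, 38.9% in either direction, so that calls were frequent among all genes and the members' counts stand beside these shares without a test. The median log2 fold change of the members was 0.04 and that of all genes -0.02. Scaling to the number of cells in place of UMIs, which moves the median of all genes to 0.60, gave 5 members higher and 2 lower, against 6921 and 586 of all genes in place of 2761 and 2636. Scaling to library totals gave 1847 and 3700 of all genes. With 1 library per group and experiment, the p-values rest only on the spread between these 4 libraries, which may be technical. In edgeR the spread of each gene is moderated by that of all genes tested. The SE given with an edgeR log2 fold change is its absolute value divided by the square root of the test's F.

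**Figure D1:**
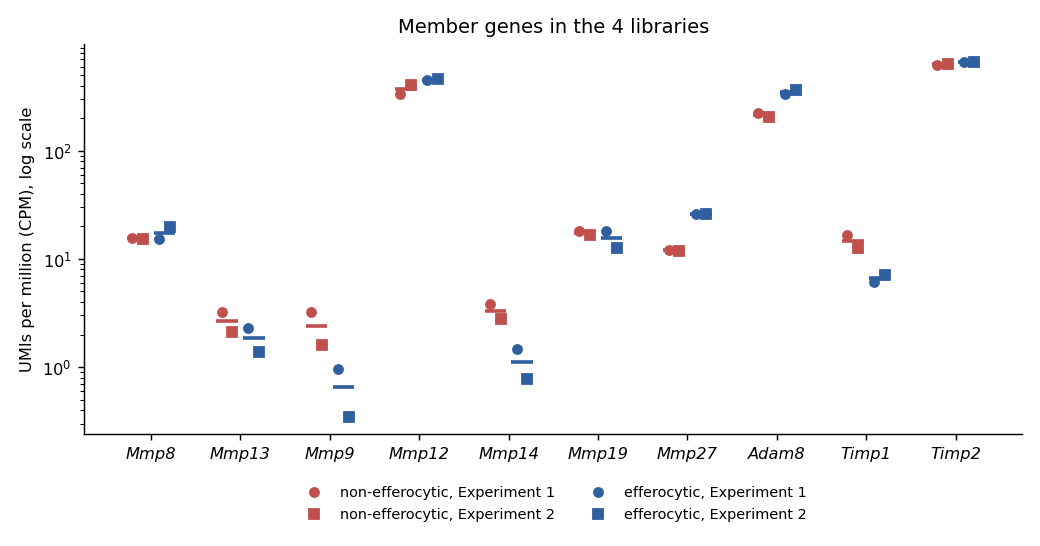
CPM of each member on a log axis in the 4 libraries (circles Experiment 1, squares Experiment 2, horizontal lines the mean of 2 libraries). Mmp27 and Adam8 lie higher in both efferocytic libraries, Mmp9, Mmp14 and Timp1 lower, and Mmp8 and Mmp19 overlap between the groups.

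The members fall into a stretch of chromosome 9 and 6 other places of the genome (GRCm38, GENCODE vM21; the files use mm10, the same assembly). Mmp13 (ENSMUSG00000050578, chr9:7272514-7283331), Mmp12 (ENSMUSG00000049723, chr9:7344381-7369499), Mmp8 (ENSMUSG00000005800, chr9:7558456-7568485) and Mmp27 (ENSMUSG00000070323, chr9:7571396-7581885) stand on the + strand in a run of 10 metalloproteinase genes over 427.072 kb. In that run Mmp1b, Mmp7 and Mmp20 had no UMI in any library, which allows up to 0.0193 to 0.0296 CPM by counting error alone, and Mmp3 and Mmp10 had at most 15 UMIs a library. The others are Mmp9 (chr2:164940780-164955850), Mmp14 (chr14:54431612-54445364), Mmp19 (chr10:128790910-128800824), Adam8 (chr7:139978932-139992562), Timp1 (chrX:20870166-20874735) and Timp2 (chr11:118301069-118355740). Mmp12 shares 157 exon bases with Mmp1b on the other strand and Mmp19 shares 789 with Tmem198b and 212 with Gm47093, and the 3' kit keeps strand.

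RefSeq (GRCm38.p6) gave 9 promoters for 8 of the members, Mmp12 having 2 starts. Those of the 3 members called higher are shown, because they share a direction in the library sums, beside Mmp13, the neighbour of Mmp12 that was called lower. Each run covers 120 bases before the start and 30 from it, and capitals mark the AP-1 motif TGANTCA and the TATA box TATAAA, searched on both strands. They are the + strand at chr9:7344277-7344426 and chr9:7347254-7347403 (Mmp12), chr9:7272394-7272543 (Mmp13) and chr9:7571276-7571425 (Mmp27), and the - strand at chr7:139992533-139992682 (Adam8).
Mmp12 start 1: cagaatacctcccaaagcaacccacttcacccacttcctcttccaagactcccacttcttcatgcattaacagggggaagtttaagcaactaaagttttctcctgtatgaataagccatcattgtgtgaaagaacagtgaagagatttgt
Mmp12 start 2: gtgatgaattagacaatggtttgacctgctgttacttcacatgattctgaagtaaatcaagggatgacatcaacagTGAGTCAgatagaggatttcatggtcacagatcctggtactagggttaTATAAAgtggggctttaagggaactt
Mmp13: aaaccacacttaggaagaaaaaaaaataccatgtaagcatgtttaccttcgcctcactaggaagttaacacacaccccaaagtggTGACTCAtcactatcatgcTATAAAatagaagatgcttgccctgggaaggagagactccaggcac
Mmp27: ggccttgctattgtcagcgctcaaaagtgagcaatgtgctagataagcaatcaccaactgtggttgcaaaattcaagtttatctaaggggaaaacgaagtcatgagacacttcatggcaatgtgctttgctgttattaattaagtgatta
Adam8: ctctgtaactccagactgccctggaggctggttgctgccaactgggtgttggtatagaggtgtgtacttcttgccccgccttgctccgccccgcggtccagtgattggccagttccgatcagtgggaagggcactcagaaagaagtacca
With the start counted as 0, the AP-1 letters begin at -35 in Mmp13 and at -44 in the second start of Mmp12, and the TATA box at -16 and 4. Of 32851 mouse promoter windows of 300 bases, 7.81% hold the AP-1 letters and 13.6% the TATA box. The windows of Mmp27, Adam8 and the first start of Mmp12 hold neither. The hypoxia response core ACGTG, also searched and held by 19.6% of the windows, begins at 38 in Mmp27, outside the run shown, and at -48 in Mmp14 and -82 in Timp1, both called lower. The 2 promoters that share the AP-1 letters belong to 1 gene that was called higher and 1 that was called lower. The letters describe the sequence and show no binding.

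Mmp27, a little studied metalloproteinase, had the largest difference among the members called higher. It was at 12.1 and 11.8 CPM in the non-efferocytic libraries of Experiments 1 and 2 and at 26.1 and 26.3 CPM in their efferocytic partners. The groups were far apart and the 2 libraries of each group close together, with SDs of 0.240 and 0.126 CPM (n = 2). The log2 fold change was 1.24 (SE 0.08, adjusted p = 6.89e-05, edgeR), 2.36-fold. It kept its call under all 16 alternatives that left no library out, with log2 fold changes of 1.11 to 1.86, and under 2 of the 4 that did. Without the non-efferocytic library of Experiment 1 or 2 the adjusted p was 0.0696 and 0.0781 at log2 fold changes of 1.26 and 1.22.

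Adam8 was at 225 and 207 CPM in the non-efferocytic libraries of Experiments 1 and 2, where their efferocytic partners had 332 and 368 CPM. The lowest efferocytic library was well above the highest non-efferocytic one, with means of 350 ± 25.5 against 216 ± 12.9 CPM (SD, n = 2). The log2 fold change was 0.80 (SE 0.10, adjusted p = 0.000879, edgeR), 1.75-fold. Like Mmp27, it was called under all 16 alternatives with every library (0.70 to 1.42) and under 2 of 4 with a library left out, losing it without the non-efferocytic library of Experiment 1 (adjusted p = 0.0834) or 2 (0.0956).

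Mmp12, the macrophage elastase, had the most UMIs of the metalloproteinases in this 3' assay, which counts molecules without regard to length. It was at 335 and 405 CPM in the non-efferocytic libraries, and the efferocytic ones held 448 and 457 CPM. The groups did not overlap, but the non-efferocytic library of Experiment 2 was 1.13-fold below its partner, against 1.34-fold in Experiment 1. Its log2 fold change of 0.40 (SE 0.12, adjusted p = 0.0262, edgeR) is smaller than the differences among its cell clusters described further on. The call was lost without the block (adjusted p = 0.0815), among genes of at least 10 CPM (0.0681) and after removal of free RNA (0.102), all by edgeR. It was also lost over all macrophage-like clusters (adjusted p = 0.0668 by edgeR, at a log2 fold change of 0.34). Over those without a marker of another cell type among their 10 leading genes it was lost at a larger 0.94 (adjusted p = 0.0691, edgeR). That choice kept only 47.8% of the cells of the non-efferocytic library of Experiment 2, against 88.6% to 93.1% of the others. It dropped a cluster of 3010 non-efferocytic and 106 efferocytic cells there for Itgax, the gene most like Mmp12 as given below. Without any 1 library the call was lost as well, at log2 fold changes of 0.27 to 0.55.

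Mmp8, the neutrophil collagenase, was at 15.6 and 15.4 CPM in the non-efferocytic libraries, and the efferocytic ones had 15.2 and 19.6 CPM. Only the efferocytic library of Experiment 2 stood higher in these sums, and the log2 fold change of 0.26 (SE 0.10) missed the threshold (adjusted p = 0.0681, edgeR). Neutrophil-like cells held 13.8% and 6.39% of its UMIs in the non-efferocytic libraries and 3.17% and 0.23% in the efferocytic ones. Without the neutrophil-like clusters it was called higher (0.37, adjusted p = 0.0133, edgeR), and over all macrophage-like clusters, a choice made after the data were seen (0.32, adjusted p = 0.0334). Over the macrophage-like clusters not led by a marker of another cell type it was not called (0.41, adjusted p = 0.0724). Within macrophage-like cells it was at 13.8 against 14.8 CPM in Experiment 1 and 14.9 against 19.8 CPM in Experiment 2, higher in the efferocytic cells of both, with exact Poisson intervals, which cover counting error only, apart in Experiment 2 alone.

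Mmp13, a collagenase of bone and cartilage, was a low gene, at 3.23 and 2.10 CPM in the non-efferocytic libraries against 2.31 and 1.39 CPM. Each efferocytic library was below its partner while the groups overlapped, and the call (-0.43, SE 0.15, adjusted p = 0.0495, edgeR) stood at the threshold. DESeq2 did not make it (adjusted p = 0.310), nor did edgeR without the block (0.418). Nor was it made without any 1 library, where the log2 fold change moved to between -0.86 and -0.05. Per cell the log2 fold change of Mmp13 was 0.19. Fibroblast-like cells held 4.81% to 29.4% of its UMIs, most in the non-efferocytic library of Experiment 1. The call was also lost without cells of fibroblast and carcinoma UMIs (0.220), after free RNA removal (0.101), with no gene filter (0.0539) and, in alternatives chosen after the data were seen, over all macrophage-like clusters (0.207) and without neutrophil-like and fibroblast-like clusters (0.197), at log2 fold changes of -0.57 to -0.35.

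Mmp9, the gelatinase stored in neutrophil granules, was at 3.24 and 1.58 CPM in the non-efferocytic libraries, while the efferocytic ones had 0.960 and 0.348 CPM. Both efferocytic libraries were below both others, with a log2 fold change of -1.83 (SE 0.19, adjusted p = 0.000423, edgeR) on 54 to 328 UMIs a library. Neutrophil-like cells, under 1% of the cells, held 90.2% and 56.2% of these UMIs in the non-efferocytic libraries of Experiments 1 and 2 and 67.5% and 20.4% in the efferocytic ones, and fibroblast-like cells held 4.88% to 72.2%. Macrophage-like cells held only 16, 24, 14 and 4 Mmp9 UMIs in that order, or 0.0261 to 0.183 CPM. It was not called without the neutrophil-like clusters (log2 fold change -0.68, adjusted p = 0.159, edgeR) or in macrophage-like clusters alone (-1.09, 0.186). Nor was it in alternatives chosen after the data were seen, without neutrophil-like and fibroblast-like clusters (-1.41, 0.102) and over all macrophage-like clusters (-1.37, 0.118), where the fold stayed nearer that of all cells. In library sums fewer cells of a type and less RNA per cell cannot be told apart. The call was also lost after removal of 10% free RNA (-2.96, adjusted p = 0.0924), without the block (0.0956) and without either non-efferocytic library (0.340 and 0.136) or the efferocytic library of Experiment 2 (0.174). Its size moved as well, to -1.16 and -2.19 without the non-efferocytic library of Experiment 1 and 2 and to -2.71 and -1.17 without the efferocytic one.

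Mmp14, the membrane-anchored metalloproteinase that activates MMP2, was at 3.85 and 2.79 CPM in the non-efferocytic libraries, and its efferocytic values were 1.46 and 0.773 CPM. Both efferocytic libraries were lower, with a log2 fold change of -1.51 (SE 0.18, adjusted p = 0.000634, edgeR). Fibroblast-like cells, at 83.7 to 122 CPM, held 30.1% to 60.8% of its UMIs. Over all macrophage-like clusters its level was still lower, 2.29 and 1.75 CPM against 0.915 and 0.202 CPM, and it was called there (-2.01, SE 0.40, adjusted p = 0.0112, edgeR). Different clusters held most of these cells in the 2 groups, such as a cluster of 3638 non-efferocytic and 123 efferocytic cells in Experiment 1. Within 14 clusters that both groups filled, it was higher in 6 and lower in 8, with 95% Poisson intervals apart in none. These levels rest on 31 to 230 UMIs a library and are below those of the empty barcodes, 3.81 to 18.9 CPM, and after 10% of the UMIs were removed as free RNA the log2 fold change over all cells was larger, at -3.26, but not called (adjusted p = 0.193). Over all cells it was lost without the block (0.0529) and without either non-efferocytic library (0.210 and 0.127) or the efferocytic library of Experiment 2 (0.0712).

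Timp1, a secreted inhibitor of metalloproteinases, was at 16.7 and 12.6 CPM in the non-efferocytic libraries, and the efferocytic ones had 6.06 and 7.16 CPM. The groups were apart, and the log2 fold change was -1.03 (SE 0.14, adjusted p = 0.00114, edgeR). Fibroblast-like cells, 0.250% to 0.399% of the cells, held 71.0% to 92.6% of its UMIs. They had 1160 and 1067 CPM in the non-efferocytic libraries and 917 and 952 CPM in the efferocytic ones, where macrophage-like cells had 1.27 and 2.94 against 1.60 and 1.80 CPM. Within macrophage-like cells the direction thus differed between the experiments, and over all macrophage-like clusters it was not called (-0.16, SE 0.27, adjusted p = 0.662, edgeR). It was also not called without the neutrophil-like and fibroblast-like clusters (-0.33, adjusted p = 0.429), nor over all cells without the non-efferocytic library of Experiment 1 (0.103) or 2 (0.0808).

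Timp2, an inhibitor that also takes part in the activation of MMP2 by MMP14, had the most UMIs of all members, 626 and 635 CPM in the non-efferocytic libraries and, in the efferocytic ones, 666 and 659 CPM. The groups did not overlap, at 630 ± 6.60 against 662 ± 4.77 CPM (SD, n = 2), and the log2 fold change of 0.18 (SE 0.11) was not called (adjusted p = 0.227, edgeR). Mmp19, which cuts basement membrane proteins, was at 18.3 and 16.6 CPM in the non-efferocytic libraries and, in the others, 18.3 and 12.7 CPM. The first experiment showed no visible difference and the second a lower efferocytic library, and the log2 fold change of -0.09 (SE 0.12) was not called (adjusted p = 0.570, edgeR). In all, 7 of the 10 members had groups that did not overlap in CPM, where this held for 66.9% of all genes tested. The efferocytic libraries were the higher ones for 4 of them and the lower ones for 3, against 22.2% and 44.7% of all genes.

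**Figure D2:**
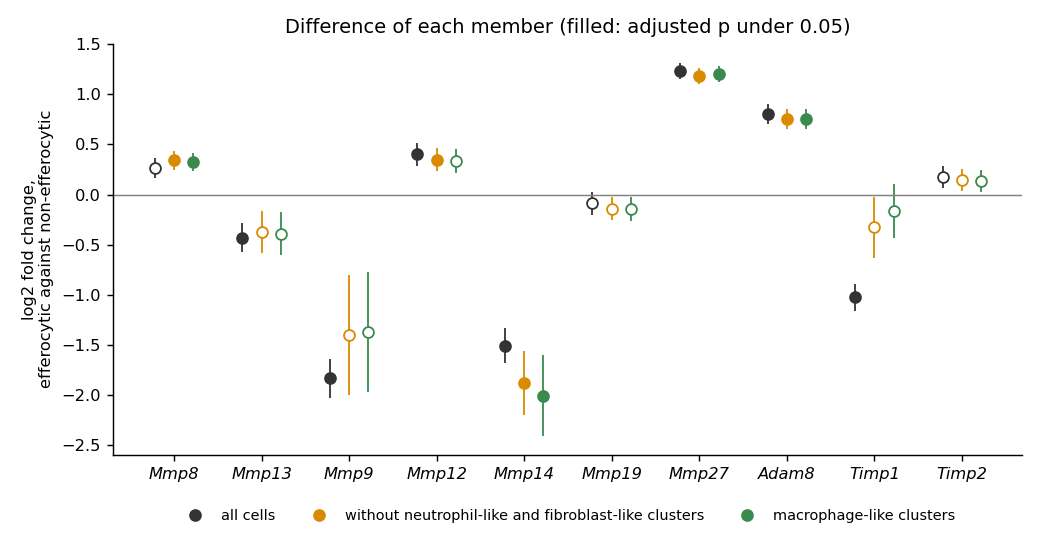
Log2 fold change of each member with its standard error (bars) over all cells, without neutrophil-like and fibroblast-like clusters, and over all macrophage-like clusters, with filled points where edgeR's adjusted p was under 0.05. Timp1 moved from -1.03 to -0.16 between the first and the last, while Mmp27 and Adam8 stayed at 1.20 and 0.75.

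**Figure D3:**
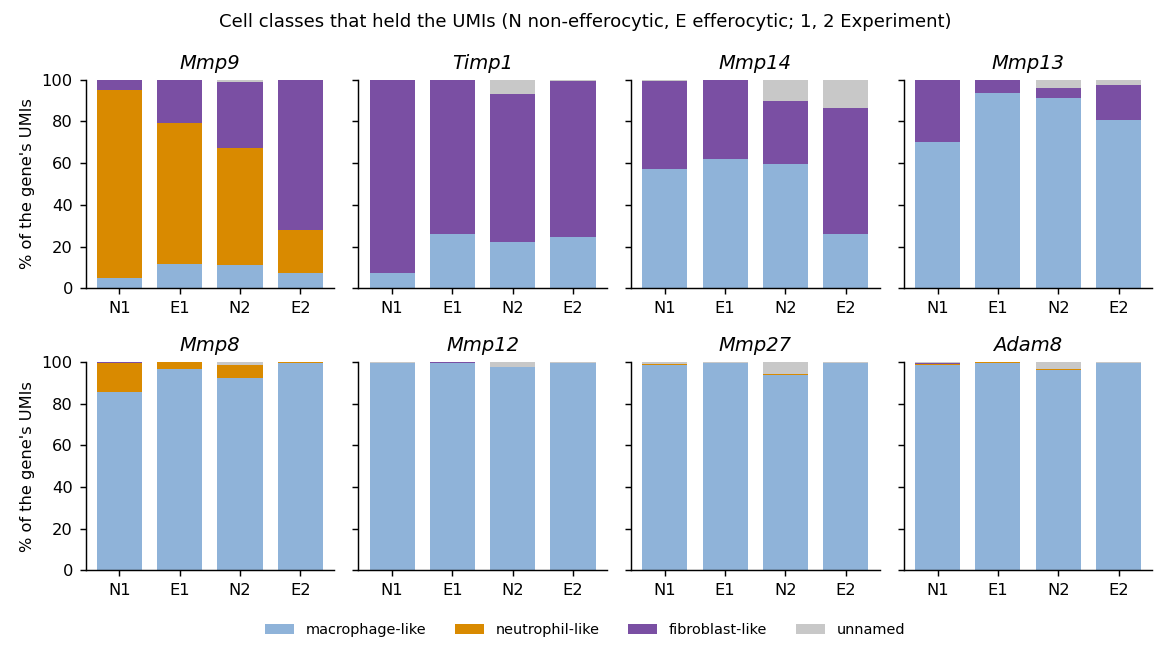
Percent of the UMIs of 8 members that each cell class held in the 4 libraries. Neutrophil-like and fibroblast-like cells held most Mmp9 and Timp1 UMIs, and macrophage-like cells held nearly all Mmp12, Mmp27 and Adam8 UMIs.

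Macrophage-like cells held at least 93.8% of the Mmp12, Mmp19, Mmp27, Adam8 and Timp2 UMIs in every library, and these 5 could be followed across the 33 pairs of a macrophage-like cluster and a library that had at least 50 cells. Clusters were made within each experiment without any Mmp, Adam, Adamts or Timp gene. Mmp12 varied most, 156-fold from 12.9 to 2013 CPM with a median of 370. Adam8 varied 4.59-fold (109 to 498 CPM), Mmp27 16.2-fold (3.64 to 58.9 CPM), Mmp8 28.9-fold (2.79 to 80.5 CPM), Mmp19 4.88-fold (6.71 to 32.8 CPM) and Timp2 2.33-fold (333 to 775 CPM).

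Mmp12 was lowest in the cluster of Experiment 1 led by Gpr34 and Hpgd, with 13.3 CPM in 3638 non-efferocytic and 12.9 CPM in 123 efferocytic cells. It was highest, at 2013 CPM, in a cluster of 428 efferocytic cells of Experiment 1 led by Arg1, Ankrd37 and Egln3. All 12 macrophage markers were detected in that cluster. The monocyte marker F13a1 was among its 10 leading genes, and no macrophage marker was, as in every other cluster. Of the macrophage-like clusters it was also the highest in Mmp27 (58.9 CPM), and it held 14.4 CPM of Mmp13. Clusters led by Cdkn1c, Pdpn and Npy had 1249 and 1384 CPM of Mmp12 in the non-efferocytic cells of Experiments 1 and 2 against 683 and 835 CPM, and 425 to 498 CPM of Adam8. Those led by interferon-induced genes were low in Mmp12 (21.6 to 50.4 CPM) and Adam8 (109 to 156 CPM). A cluster of Experiment 2 led by MHC class II genes was low in Adam8 (113 and 135 CPM). Its 65 efferocytic cells had the highest Mmp8 of these pairs, 80.5 CPM, while its 1359 non-efferocytic cells had 26.2 CPM, below the highest non-efferocytic value of 55.7 CPM.

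In 7 macrophage-like clusters of each experiment both libraries had at least 50 cells, so that the groups could be set side by side within a cluster. Mmp27 was higher in efferocytic cells in 14 of 14 such pairs, by 1.20-fold to 3.70-fold, and in 8 the 95% Poisson intervals, which cover counting error only, were apart. Mmp8 was higher in 12 of 14 and lower in both clusters led by mitosis genes, with 55.7 against 22.9 and 42.5 against 32.7 CPM. The intervals of Mmp8 were apart in 4 clusters where it was higher and in 1 where it was lower. Adam8 was higher in 3 and lower in 4 clusters of Experiment 1, with intervals apart in 1 and 3, and higher in 5 and lower in 2 of Experiment 2, with intervals apart in 3 and 0. Its ratios were 0.742 to 1.56. Mmp12 was also higher in 3 and lower in 4 (intervals apart in 3 and 3), then higher in 5 and lower in 2 (4 and 2), with ratios of 0.464 to 1.80. For both genes the direction of the library sums thus did not recur in every cluster. Mmp19 was lower in 11 of 14, with intervals apart in 2, and higher in 3, with intervals apart in 0. Timp2 was lower in 10 of 14 and higher in 4, with intervals apart in 3 each way. Mmp13, on few UMIs, was lower in 10 of 14 and higher in 4, with intervals apart in 5 and 0. Clusters in which 1 library held most cells enter these counts alike, and no test was made, since cells of a library are not replicates.

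**Figure D4:**
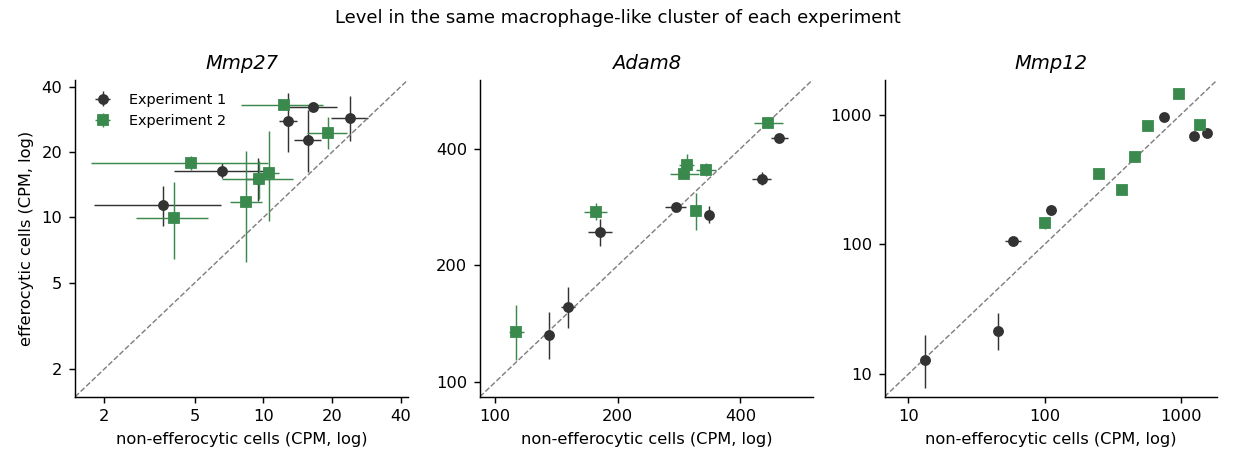
CPM of Mmp27, Adam8 and Mmp12 in efferocytic (y axis) against non-efferocytic cells (x axis) of the same macrophage-like cluster on log axes, with 95% Poisson intervals and the line of equal level. All 14 points of Mmp27 lie above the line, and those of Adam8 and Mmp12 lie on both sides, 8 above and 6 below.

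Because efferocytic cells held more UMIs each, shares of cells were compared after each cell was thinned to 5000 UMIs. This left out 1099 and 3404 non-efferocytic and 544 and 505 efferocytic cells. Thinning, like CPM, sets a difference in UMIs per cell aside, and the source of that difference was not tested. A UMI of Adam8 was found in 54.5% and 54.1% of non-efferocytic and in 74.5% and 78.3% of efferocytic cells of Experiments 1 and 2. For Mmp27 the shares were 6.38% and 5.83% against 12.6% and 12.5%, and for Mmp12 18.1% and 28.5% against 32.6% and 35.8%. All 3 shares were higher in efferocytic cells in both experiments. Their exact binomial 95% intervals were apart, but these cover counting error only, and cells of a library are not replicates. Without thinning the shares were 70.3% and 64.1% against 90.6% and 93.2% for Adam8, 12.4% and 10.5% against 32.7% and 33.2% for Mmp27, and 22.3% and 35.5% against 46.8% and 50.1% for Mmp12. These unthinned shares include the cells of the unnamed clusters of few UMIs, most frequent in the non-efferocytic library of Experiment 2. Cells with a UMI of Mmp12 held a mean of 7.28 and 5.70 UMIs in non-efferocytic and 6.99 and 5.96 in efferocytic libraries. Since a cell with 1 UMI of free RNA enters this mean, it does not separate the number of Mmp12 cells from their level.

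Fibroblast-like cells, which are not a usual source of Adam8, Mmp12 or Mmp27, were set beside the macrophage-like cells as a background. They are no clean measure of free RNA, since all 12 macrophage markers were detected in their clusters, whose median depth was 3.09 and 2.80 times that of the libraries, and free RNA, doublets with macrophages and RNA of their own cannot be told apart there. At 5000 UMIs, 7.69% to 25.8% of them had a UMI of Adam8, 5.56% to 19.0% of Mmp12 and 0 to 4.76% of Mmp27, on 13 to 36 cells a library with median depths of 32879 to 47069 UMIs before thinning. Macrophage-like cells (11648 to 18206 UMIs) had higher shares in the same library, at 55.3% to 78.4% for Adam8, 18.1% to 36.3% for Mmp12 and 5.68% to 12.5% for Mmp27. With so few fibroblast-like cells only the Adam8 shares lay beyond their exact 95% intervals in all 4 libraries (upper limits 26.1% to 44.6%). For Mmp12 they did so only in the non-efferocytic library of Experiment 2 (upper limits 18.7% to 45.4%). For Mmp27 they did so in none (9.74% to 24.7%). Elsewhere these thinned shares did not detectably exceed a background of that size. In sums of all UMIs, macrophage-like cells had 12.4 and 11.7 CPM of Mmp27 and 345 and 415 of Mmp12 in the non-efferocytic libraries. The upper 95% Poisson limits of the fibroblast-like cells were 4.14 and 4.81 CPM for Mmp27 and 40.4 and 21.4 for Mmp12. The efferocytic library of Experiment 1 had 26.3 CPM of Mmp27 and 452 of Mmp12, against limits of 14.4 and 164. In that of Experiment 2 the limits were 8.29 and 284, with 26.3 and 457 CPM in the whole library. Empty barcodes of at most 100 UMIs held 167 to 288 CPM of Adam8 and 206 to 320 CPM of Mmp12, 0.613 to 0.958 of the level in cells. Mmp9, Mmp14 and Timp1 were higher in empty barcodes than in cells in all 4 libraries, by 1.65-fold to 34.1-fold. A UMI of these 3 in a macrophage-like cell therefore cannot be told apart from free RNA. After thinning they were found in 0.0759% to 1.81% of the cells of a library. Mmp13 was also higher in empty barcodes than in cells, by 1.18-fold to 4.27-fold, except in the non-efferocytic library of Experiment 1 (0.643). The same limit holds for Mmp13 where the empty barcodes were higher.

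**Figure D5:**
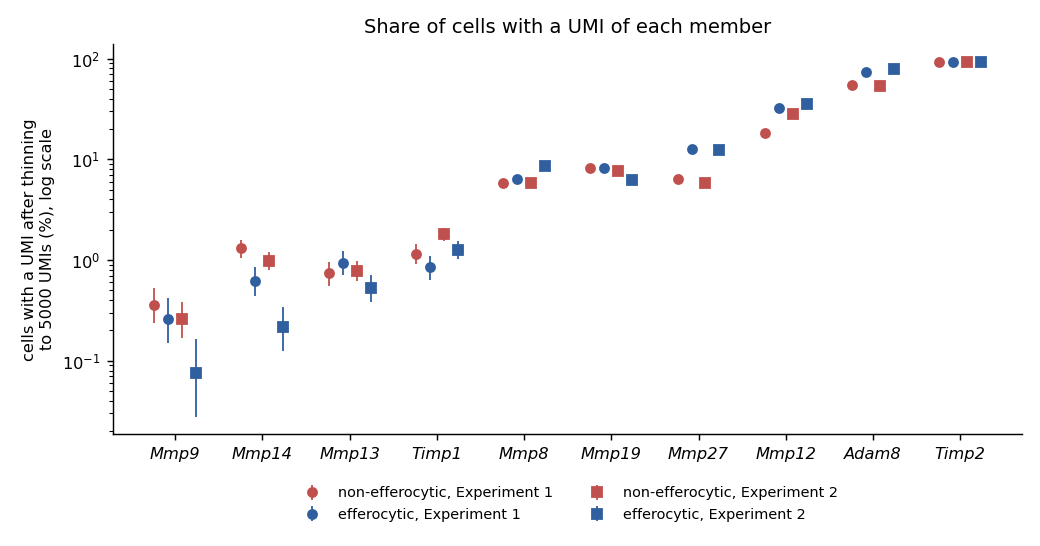
Percent of cells with at least 1 UMI of each member after thinning to 5000 UMIs, on a log axis, with exact binomial 95% intervals that cover counting error only. Adam8, Mmp12 and Mmp27 lie higher in both efferocytic libraries, Mmp14 lower, Mmp8 was at 5.83% and 5.85% against 6.37% and 8.67%, and Timp2 was found in 91.8% to 92.8% of the cells of every library.

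Across 43 combinations of cluster and library with at least 50 cells, the genes most like Adam8 in log2(CPM + 1) were Cdk18 (r = 0.953), Mfsd12 (0.933) and Osbpl8 (0.928), among 8976 genes of at least 5 CPM. Those most like Mmp12 were Itgax (0.866), Il11ra1 (0.858) and Wfs1 (0.844). Mmp27 was most like Hpgds (0.836), Cd180 (0.809) and Ppt1 (0.802), and Timp2 most like Serpinb6a (0.924), Litaf (0.833) and Npc2 (0.828). Timp1 followed the collagen genes Col1a1 (0.854) and Col3a1 (0.834) with the collagen chaperone Serpinh1 (0.844). The fibroblast-like clusters, with 21 to 37 cells a library, are not among these points. Most points are of macrophage-like cells, where a UMI of Timp1 cannot be told apart from free RNA. Mmp8 was less closely matched, by Lsp1 (0.704), Sh2d1b1 (0.702) and Selplg (0.650), and Mmp19 by Slc10a3 (0.753), Arhgef10l (0.739) and Mbtps1 (0.726). Between members, Mmp12 and Adam8 had r = 0.735, and the neighbours Mmp8 and Mmp27 r = 0.163. The points share libraries and depth, and these values describe likeness only.

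The counts of other lists stand, without a test, beside the 19.9% of all genes called higher and 19.0% lower. Of 16 other metalloproteinases 8 passed the filter on low counts, of which 2 were called lower (Mmp2 and Mmp23, both under 5 CPM) and none higher. Of 13 other ADAM and ADAMTS proteinases tested 2 were higher and 6 lower. Adam9 went from 36.4 and 35.7 CPM to 47.2 and 46.5 CPM (0.49, SE 0.07, adjusted p = 0.00208), Adam15 had a log2 fold change of 0.29 and Adamts10 of -0.59. Of 3 genes tested from the list of other inhibitors, Rarres1 was called higher and Timp3 lower. Neither met the level and direction set for genes named with values.

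Of 12 tested genes that activate, bind or carry these proteinases 6 were called higher and 3 lower. Plau, the urokinase that starts a cascade of metalloproteinase activation, went from 8.28 and 7.06 CPM to 23.6 and 30.7 CPM (log2 fold change 1.93, SE 0.13, adjusted p = 7.10e-05, edgeR). Lcn2, which binds MMP9 in neutrophil granules, and Elane, the neutrophil elastase, had log2 fold changes of -2.20 and -1.36, beside the lower sum of neutrophil markers, whose part was not tested. Of 12 lysosomal proteinases, the cathepsins and legumain (Lgmn), 6 were higher, Lgmn among them, and 2 lower. Ctsl was at 1.09, Ctsf at -1.04 and Ctsc at -0.92.

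Of 19 matrix proteins tested 15 were lower and 3 higher, with a median log2 fold change of -1.31. Thbs1 (thrombospondin) had -2.90 and Col1a1 -1.49, and Spp1 (osteopontin) had 1.64, from 918 and 767 CPM to 2719 and 2166 CPM. The fibroblast-like cells were fewer in efferocytic libraries as given above, and their part in the collagen values was not tested. Of 17 AP-1, ETS and RUNX factors 9 were lower, Runx1 among them, and none higher, 8 not called. Fos went from 286 and 48.1 CPM to 71.3 and 17.4 CPM (-1.63, SE 0.12, adjusted p = 9.68e-05), Fosb had -1.69 and Junb -0.98, all by edgeR.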

How the data were processed

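Per the labels and methods, the authors aligned the reads of 4 droplet libraries to mm10 by Cell Ranger, and the matrices they deposited hold UMI counts of all barcodes, unfiltered and not normalized. Version 3.0.0 is named in the methods, and version 3.1.0 in the headers of Experiment 2. The cell thresholds are those of the methods, applied to all deposited barcodes, and left more cells in every library than the study kept, by the widest margin in the non-efferocytic library of Experiment 2. A cutoff on UMIs in the manner of Cell Ranger's calling rule, set on top of these thresholds as an alternative, left 6158 to 10615 cells. No other step of cell calling was run. Sums of UMIs per library entered the quasi-likelihood test of edgeR 4.0.16 (TMM, filterByExpr, R 4.3.3) with Benjamini-Hochberg adjustment over 13869 genes, and DESeq2 1.42.0 was run beside it. The experiment, given by the labels, was a block, and same-experiment libraries deviated together from their group means (correlation 0.672 over 7097 genes). On simulated counts, edgeR found 90 of 100 genes changed by 1 on the log2 scale and 41 of 100 changed by 0.5, with 5 false calls among 13820 genes tested. These counts had the same dispersion for every gene, no difference between experiments and far fewer changed genes than were called here. The rates need not hold for these libraries. Cells were clustered per experiment (Leiden, resolution 0.5, 20 components, leidenalg 0.10.2) and named from markers. Doublets were kept in the main counts, and 2912 cells were removed as doublets in an alternative, since Scrublet's own threshold called 4. Intervals are exact, at 95%, and cover counting error only. The members and lists were chosen with earlier results of these data known. Named are the members, the 3 called genes of largest change per list with at least 5 CPM and 1 direction in both experiments, and the 3 genes most like each member of at least 5 CPM. Seurat integration was not repeated. The alternatives were the block, DESeq2, scaling, gene and cell filters, doublets, free RNA, cell classes and each library left out.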

Additional observations from a re-analysis of the deposited data

Results flagged for a closer look

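Mmp8 was flagged because its library sums went opposite ways in the 2 experiments. The log2 ratio of efferocytic to non-efferocytic CPM was -0.047 in Experiment 1 and 0.35 in Experiment 2, and this difference was not tested, as each experiment has 1 library of each group. In macrophage-like cells, and in the share of cells with a UMI after thinning, it was higher in the efferocytic library of both experiments.

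A signal of 4 members outside the cells was flagged. Barcodes of at most 100 UMIs, which the comparisons leave out, held more of them in the efferocytic than in the non-efferocytic library of both experiments. For Mmp12 they held 275 and 320 CPM in the efferocytic libraries against 206 and 258, and for Adam8 236 and 288 CPM against 167 and 198. For Mmp27 the values were 16.9 and 16.4 CPM against 10.4 and 10.6, and for Mmp19 13.1 and 13.8 CPM against 11.0 and 12.7.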

How the results depend on the processing

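Over 20 alternatives, 141 of 197 log2 fold changes of the members kept their direction and side of the threshold, 45 lost a call, 6 gained one and 5 reversed. The members called higher, 3 in the main fit, were 5 with UMIs per cell, and 0 to 2 with a library left out. They were 2 without the replicate block, among genes of at least 10 CPM, after free RNA removal and in macrophage-like clusters alone, 4 with no gene filter, without neutrophil-like and without neutrophil-like and fibroblast-like clusters, and 3 otherwise. Those called lower, 4 in the main fit, were 1 without the replicate block (the paired design by experiment), 2 with UMIs per cell, 1 among genes of at least 10 CPM, 1 after removal of 10% free RNA, 2 in macrophage-like clusters alone, 2 without cells of fibroblast and carcinoma UMIs, and 0 to 3 with a library left out. They were 1 over all macrophage-like clusters and 1 without neutrophil-like and fibroblast-like clusters, both chosen after the data were seen. Neither non-efferocytic library could be left out without losing every call of a member, where edgeR called at most 2 of all genes. The filter of 10 CPM leaves Mmp9, Mmp13 and Mmp14 out of the test, and fits with a library left out have no block, with the lone library assumed to vary like the other group. Otherwise the cause was not tested.

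Reversed were Mmp13 with UMIs per cell (0.19), and Mmp19, which was never called, with UMIs per cell (0.53), in macrophage-like clusters alone (0.00474) and with a library left out (-0.39 to 0.22). Without thinning, the difference in the share of cells turned to 0.0579 percentage points for Mmp13 and 4.92 for Mmp19 in Experiment 2. Those of Timp1 in Experiment 1 (-0.310) and Timp2 in Experiment 2 (-0.281) also turned, to 1.18 and 6.98 without thinning and 0.0474 and 2.28 at 2000 UMIs, as did Mmp19 in Experiment 1 (0.0520 to -0.124 at 2000 UMIs). All genes called by edgeR numbered 2358 without the block in place of 5397, and DESeq2 called 3338. After free RNA removal they were 1324 higher and 1015 lower of 13262, in place of 2761 and 2636 of 13869, so that the members lost calls beside a general loss, and in macrophage-like clusters alone 2459 and 2343 of 12995. With 2 libraries per group and 54 to 390 UMIs of Mmp9, Mmp13 and Mmp14 in each, depth limits what can be said of these 3.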
